A study of Mus musculus with 2 samples.

Results

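The genes described here are 9 components of JAK-STAT signalling and of its negative feedback, namely the Janus kinase genes Jak2 and Jak3, the transcription factor genes Stat3 and Stat5a, the suppressor genes Socs1, Socs2, Socs3 and Cish, and the kinase gene Pim1. They were chosen by name, and every probe that the platform annotation assigns to one of these symbols was taken, which gave 16 of the 25697 probes and 9 of the 16590 named genes. RNA was measured on Illumina mouse bead arrays in S100A4+ cells from metastatic lung (1 array), from S100A4-GFP transgenic BALB/c mice that bore tumours of the 4T1 mammary carcinoma line, and in S100A4+ cells from normal lung (1 array), from mice of the same strain and transgene. S100A4 is a calcium-binding protein made by fibroblasts and by many leukocytes, so that the sort on its green reporter defines the cells by that gene and not by lineage. Each group has 1 array without replicates, so the differences below are sizes with no p-value, and an effect of the single array cannot be told apart from one of the condition. The sources used here do not say how many animals gave the RNA.

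Many cytokine receptors have no enzyme activity of their own and rely on Janus kinases bound to their inner side. When a cytokine binds, these kinases phosphorylate the receptor and then the STAT proteins, which enter the nucleus and switch on target genes. Socs and Cish genes are themselves such targets, and their proteins bind the receptor or the kinase, block it or mark it for degradation, so that they close a feedback loop. In myeloid cells the loop through STAT3 and SOCS3 is known for restraining signals of interleukin-6 and of granulocyte colony-stimulating factor. The loop through STAT5 with CISH and SOCS2 is known, in other cells, for restraining growth hormone and lymphocyte growth factors.

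The metastatic-lung cells had more Jak2 RNA (2.67-fold on its brightest probe) and less Socs2 RNA (2.99-fold) than the normal-lung cells. Socs3 was 1.91-fold higher, just short of a 2-fold difference, and Stat3 was 1.25-fold higher on its bright probes. Stat5a and Cish differed by less than 1.3-fold, both towards lower values in metastatic lung. Pim1 was dim, and Socs1 and Jak3 were not told apart from background on either array.

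A probe counts here as detected on an array where its detection p, a rank among the array's negative control probes, is below 0.01. By its brightest probe, a gene was detected on at least 1 array for 7 of the 9 members, and for 8128 of all named genes. Each ratio is that of metastatic lung to normal lung, on a log2 scale after background correction, an offset of 16 and quantile normalization, which understates the ratios of dim genes. Where only 1 array detected a probe, the ratio is a bound, written "at least", which sets the bright value against the lowest detected value of the other array, or against the probe's own value there if higher. Over all detected genes, 5.09% were higher by 2-fold or more and 8.16% were lower by as much, with bounds used in this way. Of the 7 detected members, 1 was at least 2-fold higher (Jak2) and 1 was lower by as much (Socs2), and these are too few for a share to be read against that background. The median log2 ratio was 0.32 over the detected members and 0.03 over all detected genes, and the members' median was 0.01 over the 6 members detected on both arrays.

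**Figure D1:**
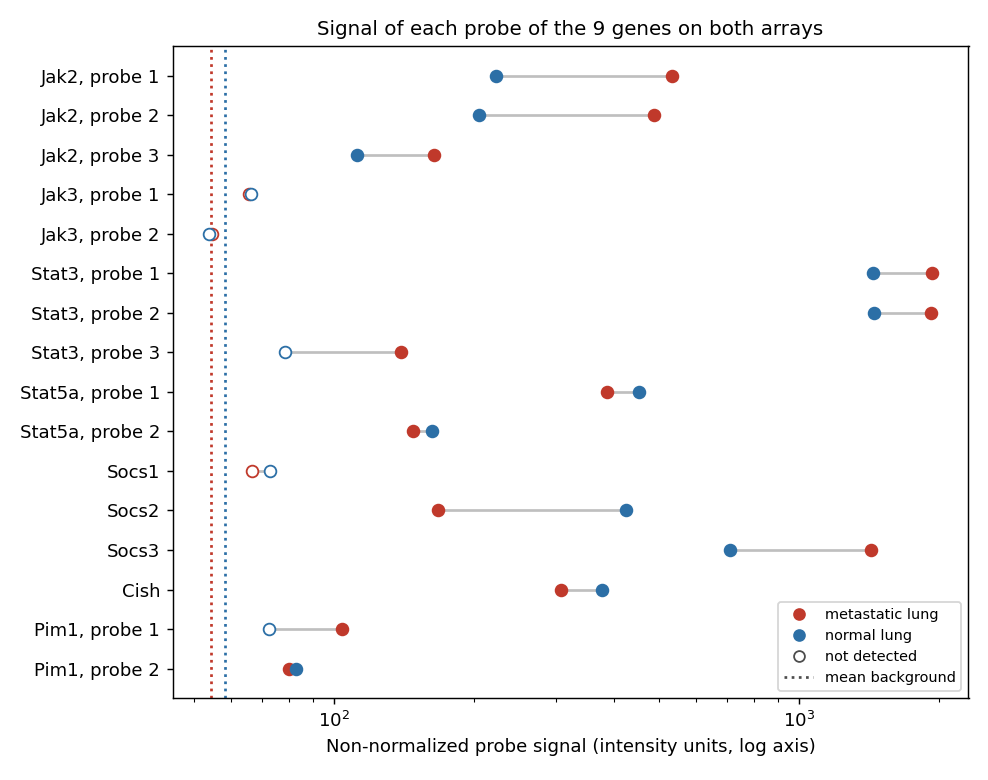
Non-normalized signal of each of the 16 probes (log axis, intensity units) in metastatic lung (red) and normal lung (blue), with open circles where a probe was not detected and dotted lines at the mean background of each array. All 3 Jak2 probes and the Socs3 probe lie to the right in metastatic lung, the Socs2 probe lies to the left, and the probes of Jak3 and Socs1 lie near the background lines.

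The arrays were of like brightness. The median signal was 66.1 for metastatic lung and 72.2 for normal lung. The background (mean ± SD, inferred from probe signals and detection p-values) was estimated at 54.5 ± 7.56 for metastatic lung and 58.3 ± 7.04 for normal lung. Of all probes, 40.9% on the metastatic-lung array and 42.6% on the normal-lung array were detected. S100a4 had a signal of 1122 in metastatic lung and 743 in normal lung. The pan-leukocyte gene Ptprc (CD45) had signals of 2215 in metastatic lung and 1965 in normal lung. Of the 10 fibroblast markers 8 were detected on at least 1 array, and Col1a1 and Lum on neither. Between different probes of 1 gene detected on both arrays, the log2 ratio varied with an SD of 0.25 per probe over 1648 genes, which is the technical spread that can be had here and covers neither animals nor sorting.

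Marker levels of several cell types differed between the arrays, and their part in the members' ratios was not tested. Of 11 neutrophil and precursor markers on the array, all were detected, 8 were at least 2-fold higher and 0 lower, with a summed normalized signal of 9026 in metastatic lung and 4375 in normal lung. Of 8 macrophage and monocyte markers, 1 was higher and 5 were lower, and the sum was 5129 in metastatic lung and 10505 in normal lung. For T and NK cells, 5 of 10 markers were lower and 0 higher, with sums of 279 in metastatic lung and 1257 in normal lung. Endothelial markers were at least 2-fold lower for 7 of 8 detected genes (sums of 326 in metastatic lung and 3267 in normal lung, with Cdh5 detected on neither array), and fibroblast markers for 7 of 8 (sums of 548 in metastatic lung and 2684 in normal lung). Dendritic cell markers were lower for 4 of 7 detected genes (sums of 1819 in metastatic lung and 5613 in normal lung) and B cell markers for 1 of 3 (68.9 in metastatic lung and 305 in normal lung), with Ms4a1, Cd79a and Pax5 detected on neither array. The smooth muscle and pericyte list had 1 of 3 detected genes lower (sums of 308 in metastatic lung and 485 in normal lung), and the epithelial and carcinoma list 2 of 7 (sums of 3732 in metastatic lung and 6841 in normal lung). In such sorted bulk RNA, fewer cells of a type and less RNA per cell cannot be told apart.

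Jak2 encodes the Janus kinase that serves the receptors of growth hormone, erythropoietin and the colony-stimulating factors that use the common beta chain, and it also works with gp130. Its brightest probe had a signal of 533 in metastatic lung and 223 in normal lung. A second probe, annotated to another RefSeq transcript of the gene, had signals of 487 in metastatic lung and 205 in normal lung. The third and dimmest had 164 in metastatic lung and 112 in normal lung. All 3 were detected on both arrays and all were higher in metastatic lung, with log2 ratios of 1.41, 1.44 and 0.91, or 2.67-fold, 2.71-fold and 1.87-fold. The dimmest probe thus gave a smaller ratio than the others, by more than the between-probe SD. Of the 8128 detected genes, 147 (1.81%, Jak2 included) had a ratio at least as high. The call of Jak2 as at least 2-fold higher stood in all 9 alternative settings, with a lowest log2 ratio of 1.10 in the authors' processed values.

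Jak3 encodes the kinase that pairs with the common gamma chain of lymphocyte cytokine receptors. Its brighter probe had signals of 65.5 in metastatic lung and 66.1 in normal lung, with detection p values of 0.0677 and 0.112. Its other probe had signals of 54.6 in metastatic lung and 53.8 in normal lung, with detection p values of 0.422 and 0.748. Jak3 was therefore not detectable on either array and no ratio is given for it. The remaining family members showed smaller differences than Jak2. Jak1, the partner of many type I and interferon receptors, had signals of 191 in metastatic lung and 193 in normal lung (log2 ratio 0.03, with the sign kept in 7 of 9 alternatives), and Tyk2, the kinase of interferon and interleukin-12 receptors, 299.7 in metastatic lung and 213 in normal lung (log2 ratio 0.60, 1.52-fold higher).

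Stat3 encodes the transcription factor downstream of interleukin-6, interleukin-10 and granulocyte colony-stimulating factor. Of its 3 probes, 2 were bright and nearly equal. The brightest had signals of 1937 in metastatic lung and 1447 in normal lung, and the next 1928 in metastatic lung and 1453 in normal lung, for log2 ratios of 0.32 and 0.30 (1.25-fold and 1.23-fold higher). The third Stat3 probe was far dimmer, with signals of 139 in metastatic lung and 78.5 in normal lung, and was detected in metastatic lung only (detection p 0.00125, against 0.0150 in normal lung), which makes its ratio at least 2.71-fold in this processing (a measured log2 ratio of 0.81 in the authors' processed values). The bright and dim Stat3 probes thus had the same direction but sizes that differed by more than the between-probe SD. With the ratio averaged over the 3 probes, Stat3 had a log2 ratio of 0.69. All 3 carry the same RefSeq transcript in the annotation, and where each binds was not analysed here.

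Stat5a encodes a transcription factor downstream of growth hormone, prolactin, interleukin-2 and granulocyte-macrophage colony-stimulating factor. Its brighter probe had signals of 387 in metastatic lung and 453 in normal lung, and the other 148 in metastatic lung and 162 in normal lung. The log2 ratios were -0.30 and -0.08, sizes near or under the between-probe SD of 0.25. Stat5b, Stat5a and Stat3 follow one another as neighbouring protein-coding genes in the GRCm38.p6 annotation. Stat5b had signals of 406 in metastatic lung and 542 in normal lung, a log2 ratio of -0.52 (1.43-fold lower). Along these neighbours the ratios were thus below 0 for both Stat5 genes and above 0 for Stat3. Stat6, which acts downstream of interleukin-4 and interleukin-13, had signals of 264 in metastatic lung and 225 in normal lung (log2 ratio 0.29).

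**Figure D2:**
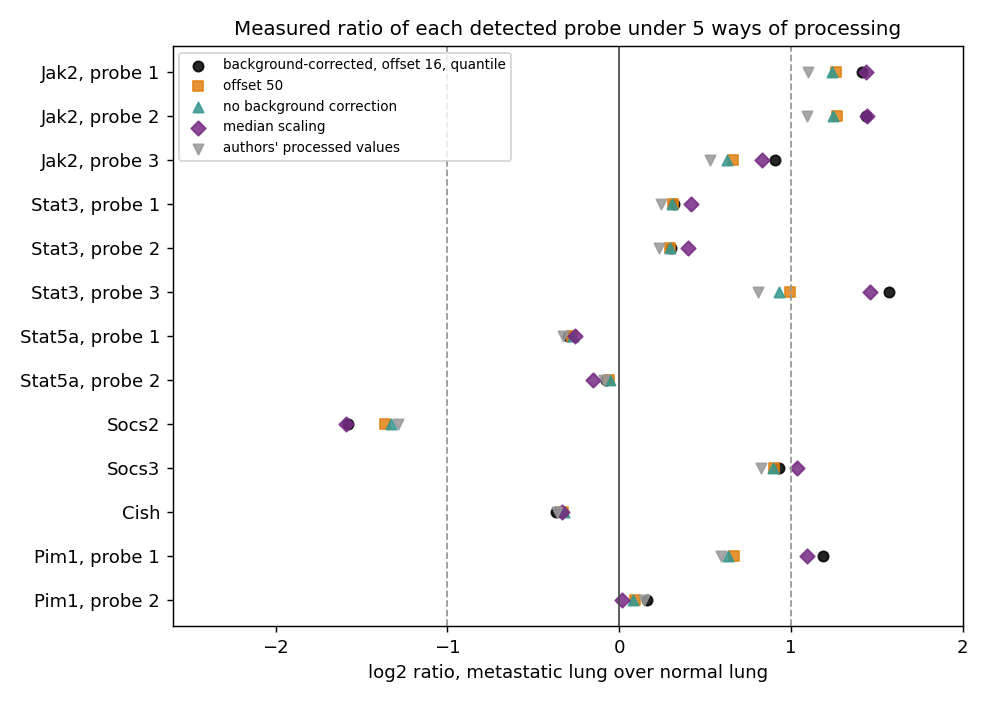
Measured log2 ratio (metastatic lung over normal lung, horizontal axis) of each detected probe under 5 ways of processing the same arrays, with dashed lines at a 2-fold difference and no bounds applied. No probe crosses 0; Socs2 and the 2 bright Jak2 probes stay beyond 2-fold in all 5, and Socs3 passes 2-fold only under median scaling (1.04).

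Socs3 encodes the suppressor that binds gp130-type receptors and blocks their Janus kinases, and it is a direct target of STAT3. The only Socs3 probe had a signal of 1427 in metastatic lung and 710 in normal lung, both far above background. The log2 ratio was 0.93 (1.91-fold higher), and 492 of the 8128 detected genes (6.05%, Socs3 included) had a ratio at least as high. The ratio lay between 0.83 and 1.04 over the 9 alternatives and reached 2-fold in 1 of them. The 250 bases before the annotated start of Socs3 (RefSeq, GRCm38.p6, chr11:117969367-117969616, minus strand) are shown because they hold the motif TTCNNNGAA, the palindrome that STAT proteins bind, so that a search of either strand finds the same matches. It is the stretch in capitals and begins 154 bases before the start.
Socs3: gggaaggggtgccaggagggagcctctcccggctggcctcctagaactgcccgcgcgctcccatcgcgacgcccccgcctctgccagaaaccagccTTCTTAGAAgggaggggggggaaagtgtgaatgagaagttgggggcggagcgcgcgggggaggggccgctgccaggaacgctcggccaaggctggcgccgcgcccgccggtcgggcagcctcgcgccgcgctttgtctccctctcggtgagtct

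Cish encodes a suppressor that STAT5 induces and that competes with STAT5 for receptor docking sites. It had a signal of 307 in metastatic lung and 376 in normal lung on its single probe, a log2 ratio of -0.37 (1.29-fold lower). The difference ran opposite to that of Socs3 and was small, and 23.4% of detected genes had a ratio at least as low. The stretch around its annotated start (RefSeq, GRCm38.p6, chr9:107296654-107296683, plus strand) is shown because it carries the same motif at 2 places, in capitals, beginning 1 and 12 bases into the annotated transcript.
Cish: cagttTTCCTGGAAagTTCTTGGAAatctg

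The table of promoter windows, which run from 250 bases before to 50 after each annotated start, covered 8 of the 9 members with 10 windows, all but Socs2. The motif was found for 2 of these 8 genes, Socs3 and Cish, and for 9.55% of all 27025 genes, or in 2 of the 10 member windows and in 8.30% of all 32851 windows. Windows with at least 2 matches, as in Cish, made up 0.457% of all. With the window cut to the 250 bases before the start, Socs3 was the only member with a match, and 7.02% of all windows held one. The windows of Jak2, Jak3, Pim1, Socs1, Stat3 and Stat5a had no match to these letters. The Socs3 and Cish sequences shown above thus share the motif, while the genes' RNA ratios lay on different sides of 0; a match is a feature of the sequence and was not measured as a binding site in these cells.

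Socs2 encodes the suppressor of growth hormone receptor signalling, and STAT5 induces it. The only Socs2 probe had a signal of 167 in metastatic lung and 425 in normal lung. The log2 ratio was -1.58 (2.99-fold lower), and 312 of the 8128 detected genes (3.84%, Socs2 included) had a ratio at least as low. Socs2 was at least 2-fold lower in all 9 alternatives, with log2 ratios between -1.59 and -1.29. It was the only member past 2-fold in that direction, and its ratio had the opposite sign to that of Socs3. The other detected suppressors of the family had ratios above 0, except that of Cish. Socs4 had signals of 390 in metastatic lung and 279 in normal lung (log2 ratio 0.54), Socs5 240.1 in metastatic lung and 190.5 in normal lung (0.45), and the brighter Socs6 probe 344 in metastatic lung and 198 in normal lung (0.95, with 0.45 on its other detected probe). None of these 3 reached 2-fold, and Socs7 was detected on neither array.

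Socs1 encodes the suppressor that blocks Janus kinases after interferon signals. The only Socs1 probe had a signal of 66.7 in metastatic lung and 72.9 in normal lung, with detection p values of 0.0539 and 0.0288. Neither met the threshold, so that Socs1 was not detectable at this depth of signal and gets no ratio. With the threshold relaxed to 0.05 it would count as detected in normal lung only.

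Pim1 encodes a serine/threonine kinase that STAT3 and STAT5 induce and that promotes survival of blood cells. Its brighter probe had a signal of 104 in metastatic lung, which was detected (p 0.00125), and of 72.3 in normal lung, which was not (p 0.0313), for a ratio of at least 1.76-fold. The other probe was detected on both arrays at 80.1 in metastatic lung and 82.8 in normal lung, with a log2 ratio of 0.16. That ratio is under the between-probe SD of 0.25 and was 0.02 under median scaling, and the signal before normalization was slightly lower in metastatic lung. The higher level of Pim1 thus rests on its brighter probe alone. Neither probe stood more than 6.56 background SDs above the mean background on either array. The log2 ratio of Pim1 lay between 0.43 and 1.19 over the 8 alternatives that gave one. Pim3, a close relative of Pim1, had a signal of 1651 in metastatic lung and 2226 in normal lung (log2 ratio -0.55, 1.46-fold lower), and Pim2 was detected on neither array.

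**Figure D3:**
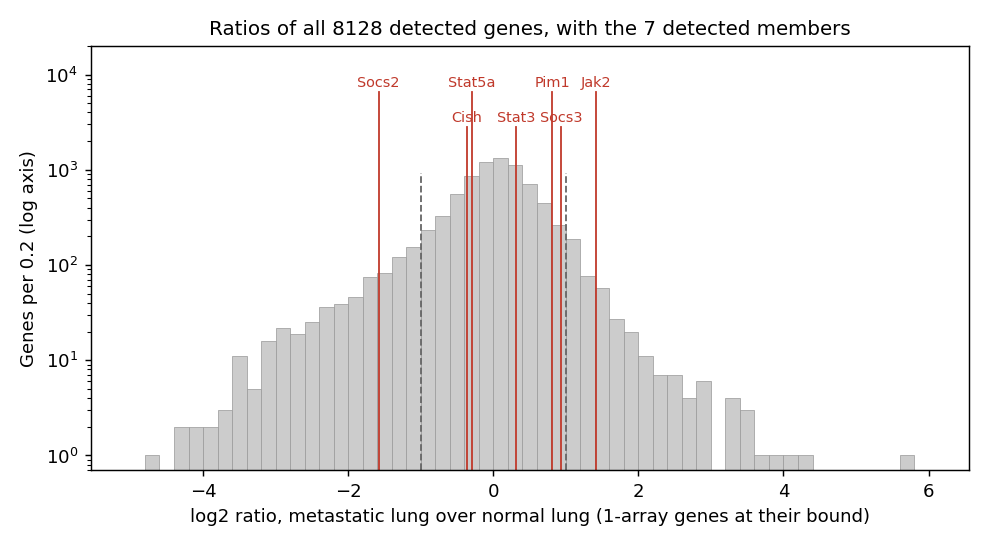
Log2 ratios (metastatic lung over normal lung) of the 8128 detected genes in bins of 0.2, with the number of genes on a log axis, red lines at the 7 detected members and dashed lines at 2-fold. Jak2 and Socs2 lie outside the dashed lines, Socs3 and Pim1 just inside the upper one, and Stat3, Stat5a and Cish among the bulk of genes.

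By the distance between the normalized values of the 2 arrays, the genes most like Jak2 among the 6904 genes detected on both arrays were Tfec (distance 0.06 on the log2 scale), Cxcl2 (0.10) and Hbegf (0.10), with log2 ratios between 1.37 (Cxcl2) and 1.54 (Hbegf). Those most like Socs2 were Slc34a2 (0.06), Vat1 (0.07) and Heg1 (0.08), with log2 ratios of -1.65, -1.68 and -1.69. A likeness over 2 arrays says only that levels and ratios were close.

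The other genes of the pathway were read from 13 textbook lists with 121 genes, of which 111 had a named probe and 74 were detected. Of these 74, 16 passed 2-fold upward and 7 downward in metastatic lung, beside the 5.09% and 8.16% of all detected genes. The higher count rests on the processing, as it was 7 in the authors' processed values, where 154 of all genes were called higher. It also rests on the detection filter, as it was 11 with detection required on both arrays, where 350 of 6904 genes were called higher. The lists were chosen with earlier results of these data known, so the counts cannot be read as an enrichment. The higher genes were ligands, receptor subunits and listed targets of STAT3, and 4 of the 7 lower genes were listed targets of STAT5.

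Among the ligands that signal through gp130, 3 of the 8 with a probe reached detection, and their median log2 ratio was 1.27. Il6, the interleukin that activates STAT3 through gp130, had a signal of 898 in metastatic lung and 294 in normal lung (3.24-fold higher). Lif, leukaemia inhibitory factor, was detected in metastatic lung only, at 128 against 68.3 in normal lung (at least 2.41-fold), but another Lif probe had a log2 ratio of 0.17. Osm, which encodes oncostatin M and is itself a STAT5 target, was bright, at 9551 in metastatic lung and 4481 in normal lung (log2 ratio 0.90, 1.87-fold higher). The 2 gp130 ligands detected on both arrays, Il6 and Osm, thus had ratios above 0, and 1 of them passed 2-fold. Lif passed the detection filter only through metastatic lung, so its ratio above 0 follows from the filter. The list median was 1.30 with detection required on both arrays and 0.34 with no filter on detection. Of 15 other cytokine ligands with a probe, 5 reached detection (median 1.02), and 3 were at least 2-fold higher. However, 2 of these 5 passed the detection filter only through metastatic lung, where they are high. With detection required on both arrays the median was 0.20 and 1 gene was at least 2-fold higher. With no filter on detection the median was 0.08. Il10, an anti-inflammatory cytokine acting through STAT3, was 3.48-fold higher, with signals of 263 in metastatic lung and 108 in normal lung. Csf2 (granulocyte-macrophage colony-stimulating factor) at 127 in metastatic lung against 60.5 in normal lung, and Il5 at 114 against 58.0, were detected in metastatic lung only, at least 2.39-fold and at least 2.03-fold higher. Both fell short of 2-fold in the authors' processed values, as did Lif.

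Receptor subunits went both ways. Il6st, the gp130 gene, had a signal of 279 in metastatic lung and 299.4 in normal lung (log2 ratio -0.12), and Il6ra, the interleukin-6 binding chain, 115 in metastatic lung and 91.5 in normal lung (0.75). Csf3r, the receptor gene of granulocyte colony-stimulating factor, had 283 in metastatic lung and 267 in normal lung on its brightest probe (0.10), with ratios between 0.53 and 0.72 on 4 further probes. The only gp130-type receptor gene past 2-fold was Il27ra, at 185 in metastatic lung and 373 in normal lung (2.28-fold lower), with -0.10 on its other detected probe. Of the receptors that rely on JAK2, the common beta chain gene Csf2rb had signals of 171 in metastatic lung and 105 in normal lung (2.20-fold higher) and its relative Csf2rb2 had 711 in metastatic lung and 340.5 in normal lung (2.11-fold higher). These are near-identical copies, so that the assignment of signal between them is uncertain. Ghr, the growth hormone receptor gene, was detected in normal lung only, at 57.3 in metastatic lung and 206 in normal lung, at least 3.97-fold lower, while its other detected probe had a log2 ratio of 0.07. Ifnar2, a chain of the type I interferon receptor, had signals of 1045 in metastatic lung and 471 in normal lung (2.19-fold higher), and Il10rb, a shared chain of the interleukin-10 receptor family, 373 in metastatic lung and 199.6 in normal lung (2.09-fold higher). Csf2rb, Csf2rb2, Ifnar2, Il10rb and Il27ra were all within 2-fold in the authors' processed values. Among the 4 detected receptor genes of the common gamma chain family, 0 passed 2-fold in either direction. Il7r, the interleukin-7 receptor gene, named here after its values were seen, stood at the threshold, with signals of 820.5 in metastatic lung and 1485 in normal lung. Its log2 ratio was -0.997, with -1.20 and -0.99 on its other probes. In the authors' processed values, and likewise with the mean over probes, 1 gene of this list was at least 2-fold lower.

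**Figure D4:**
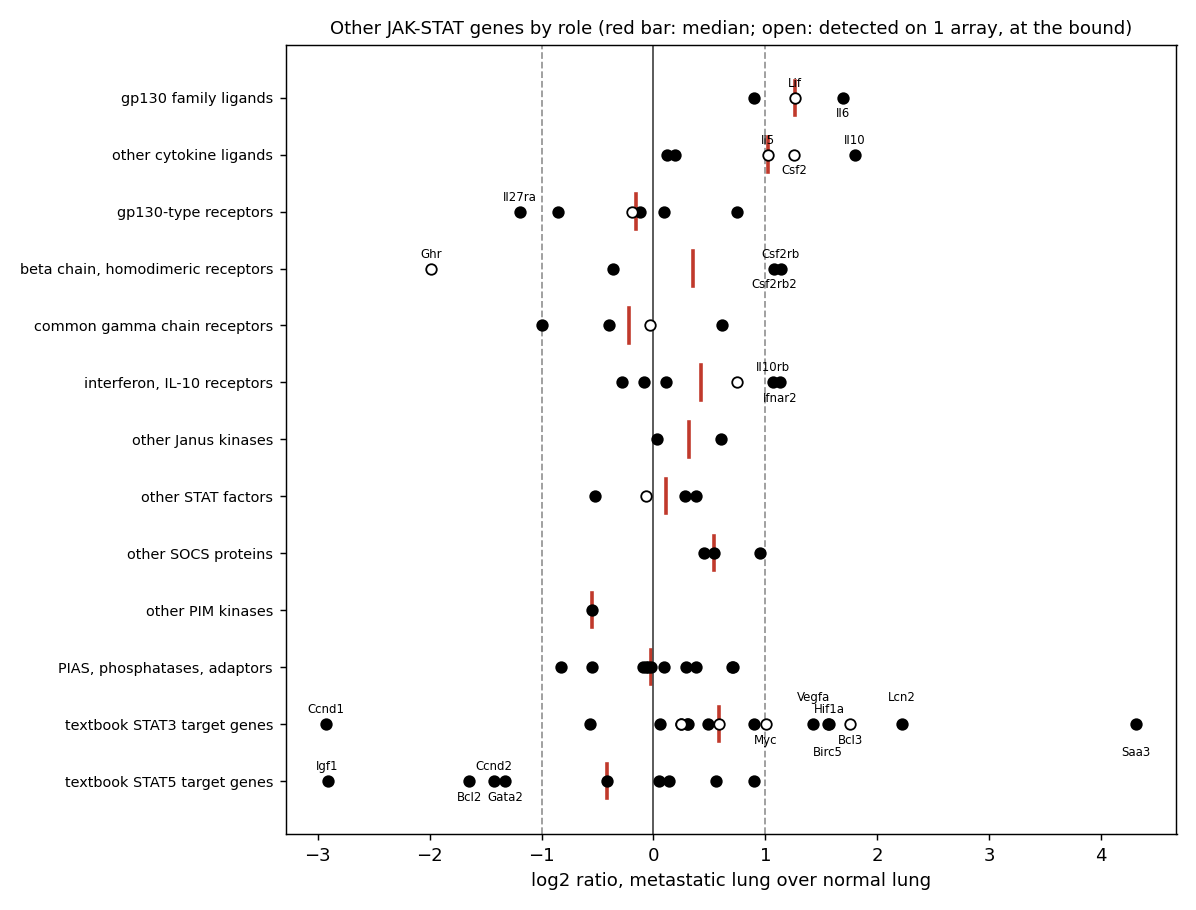
Log2 ratios (metastatic lung over normal lung) of the detected genes of 13 pathway lists, 1 list a row, with the list median as a red bar, open circles for genes detected on 1 array only (at the bound), dashed lines at 2-fold and names for genes past it. Ligands lie to the right of 0, target genes of STAT3 mostly do, and target genes of STAT5 hold Igf1, Bcl2, Ccnd2 and Gata2 at the left.

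Other proteins damp the pathway by other routes, as PIAS proteins do by binding STAT proteins and phosphatases by removing phosphate. Of 15 genes for PIAS proteins, phosphatases and adaptors on the array, 11 were detected, 0 passed 2-fold in either direction, and the median log2 ratio was -0.02, with 5 genes above 0 and 6 below. The genes at the ends of this range, named here after their values were seen, were Ptpn1 (1.64-fold higher) and Cul5 (1.63-fold higher), and Usp18 (1.78-fold lower) and Ptpn6 (1.46-fold lower).

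The target lists are collections from other cells and show levels of RNA, not activity of a factor. Of 19 STAT3 targets with a probe, 17 reached detection (median 0.58). Of these 17, 7 were at least 2-fold higher and 1 lower, and 15 had a ratio above 0. However, only 13 of the 17 were detected on both arrays. Bcl3, Junb, Myc and Timp1 passed the detection filter only through metastatic lung, where they are high, and Bcl3 and Myc are among the 7. The acute-phase gene Saa3 had signals of 967 in metastatic lung and 89.1 in normal lung. Lcn2, which is also a neutrophil granule gene and counted among the neutrophil markers, had 227 in metastatic lung and 84.7 in normal lung (4.67-fold higher). Bcl3, a nuclear regulator of NF-kB, was detected in metastatic lung only, at 165 against 75.4 in normal lung (at least 3.39-fold, and under 2-fold in the authors' processed values, as was Myc). Hif1a, the hypoxia factor gene, had 497 in metastatic lung and 194 in normal lung (2.98-fold higher). The survivin gene Birc5, at 248 in metastatic lung and 115 in normal lung, was 2.94-fold higher, with smaller log2 ratios of 0.48 and 0.79 on its other detected probes, and Vegfa, the growth factor of blood vessels, had 1928 in metastatic lung and 691 in normal lung (2.69-fold higher). Myc was detected in metastatic lung only and stood at the 2-fold threshold (with signals of 113 in metastatic lung and 81.8 in normal lung). Against these, the cyclin gene Ccnd1 had 266 in metastatic lung and 1692 in normal lung (7.59-fold lower, with a log2 ratio of -2.82 on its other detected probe).

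Of 11 STAT5 targets with a probe, 9 reached detection (median -0.41), 0 were at least 2-fold higher and 4 were lower, while 4 had a ratio above 0 and 5 below. Under median scaling 1 of them, Osm, passed 2-fold upward (log2 ratio 1.08). Igf1, the insulin-like growth factor gene that growth hormone induces, had a signal of 91.1 in metastatic lung and 445 in normal lung (7.53-fold lower). Bcl2, a survival gene, had 299.2 in metastatic lung and 817 in normal lung (3.13-fold lower), and its 5 further detected probes had log2 ratios between -1.97 and -0.98. Ccnd2 had 166 in metastatic lung and 383 in normal lung (2.68-fold lower), and the transcription factor gene Gata2 326 in metastatic lung and 718 in normal lung (2.50-fold lower). Among the members described above as induced by STAT5, Socs2 and Cish had ratios below 0. Pim1, described there as induced by STAT3 as well, had one above 0. Socs3, described above as a STAT3 target, had a log2 ratio of 0.93. The STAT3 list had its median above 0, and the STAT5 list had its median below 0, also in all 9 alternatives. Whether either factor was more or less active was not tested. Both lists were chosen with earlier results of these data known. Of the 17 detected STAT3 targets, 4 passed the detection filter only through metastatic lung.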

How the data were processed

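Total RNA was extracted with a Qiagen kit for small samples and amplified and biotin-labelled with a NuGEN Pico kit, per the labels' protocols. The deposited table holds non-normalized signal intensity and a detection p-value for each probe and array, per the file headers. The submitters' processing notes name BeadStudio, with no version. A second deposited table holds the authors' processed intensity values, each array a straight-line rescaling of the first table, by a method not given in the sources used here. Intensities were background-corrected by the normal-exponential model from detection p-values with an offset of 16, quantile-normalized and taken to log2 (limma 3.58.1, R 4.3.3; Python 3.11.15, pandas 2.3.3, numpy 2.4.6, matplotlib 3.10.9). The background correction and normalization were tested on simulated data with changes placed in bright probes only. Dim probes and the bounds were not covered by that test. Probe symbols came from the array platform's annotation and were updated through RefSeq gene identifiers (23962 probes) or accessions (9), with 8 symbols changed; 23978 probes had 1 symbol, 0 several and 1719 none. A gene was represented by its probe with the highest mean normalized value. Summed marker signals are normalized values less the offset. With 1 array a group there was no test: a gene was called where its ratio, at its bound if detected on 1 array only, was at least 2-fold and the brighter array detected it.

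All 9 members are named with every probe. Of the pathway lists, each gene past 2-fold is named, with a fixed set of kinases, STAT, SOCS and PIM genes, receptors and ligands. The members and lists were chosen with earlier results of these data known. Alternatives were an offset of 50, no background correction, median scaling, the authors' values, a detection threshold of 0.05, the mean over probes, no bound, detection on both arrays and no filter. The number of arrays limits the precision. A further gene list of the design is not reported here.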

Additional observations from a re-analysis of the deposited data

How the results depend on the processing

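No paired analysis was possible because each group has 1 array. The calls of Jak2 as higher and Socs2 as lower stood in all 9 alternatives, and each detected member kept its sign in every alternative that gave it a ratio. Members at least 2-fold higher numbered 2 in place of 1 under median scaling (Socs3 added), and 2 with a detection threshold of 0.05, with no bound and with no filter on detection (Pim1 added each time). The members' median log2 ratio was 0.0094 with detection on both arrays, where Pim1 is left out. In the authors' processed values the log2 ratio was -1.29 for Socs2 and 1.10 for Jak2, and the mean over probes gave 0.69 for Stat3. Pim1 had 0.49 with an offset of 50, 0.45 without background correction, 0.43 in the authors' values, 0.49 as a mean over probes, and 1.19 with the relaxed threshold, with no bound or with no filter. All genes called higher numbered 226 with an offset of 50, 202 without background correction and 154 in the authors' values, against 414, and genes called lower 436 without background correction and 397 in the authors' values, against 663. Higher genes made up 27.9% of all calls in the authors' values, against 38.4%. Pathway genes called higher numbered 10, 9 and 7 under the same 3 settings, against 16; the cause was not tested. Of 660 further values for lists and pathway genes, 551 moved little, 109 moved more and 0 of the called ones changed sign. Members with a promoter match numbered 1 with only the 250 bases before the start, an alternative chosen after seeing the data.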
